A study of Mus musculus with 12 samples.

Results

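The genes described here are the nuclear protein-coding genes of respiratory complexes II to V of the mouse, and of cytochrome c, which carries electrons between complexes III and IV. They were taken by gene symbol: Sdha to Sdhd, and every symbol that begins with Uqcr, Cox4 to Cox8 or Atp5, with Cyc1 and Cycs. Of the 46517 identifiers in the count files, 49 met this rule: 4 in complex II, 9 in complex III, 18 in complex IV, 17 in complex V and 1 for cytochrome c. A further 7 identifiers matched by symbol but are processed pseudogenes, with 1 to 94 counts each over the 12 libraries, and were left out. The rule goes by symbol, so subunits of complexes IV and V under other symbols are not among the 49, while Cox7a2l, which joins complexes III and IV into supercomplexes, and Atp5s, coupling factor B, are.

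Complex II (succinate dehydrogenase) oxidises succinate and passes the electrons to ubiquinone. Complex III passes them on to cytochrome c, complex IV (cytochrome c oxidase) hands them to oxygen, and complex V (ATP synthase) makes ATP from the proton gradient that complexes I, III and IV build. Complex II is wholly encoded in the nucleus, whereas complexes III, IV and V also hold subunits encoded by mitochondrial DNA. In neurons this chain is the main source of ATP. AMPK, the kinase targeted here, is switched on when ATP is low.

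The libraries fall into 4 groups. DN outputs and CTRL outputs hold RNA pulled down with GFP-tagged ribosomes by translating ribosome affinity purification (TRAP), a method that takes the ribosomes of chosen cells, here SF1 cells. DN inputs and CTRL inputs hold the RNA of the dissected ventromedial nucleus (VMN) of the hypothalamus from the same pools before the pull-down. DN mice received an adeno-associated virus (AAV) for dominant-negative AMPK and one for the fusion protein GFP-L10, and CTRL mice are labelled as lacking the mutant kinase. The treatment field of the CTRL samples nevertheless lists the mutant virus, and the characteristics, which say otherwise, were followed. No replacement virus is named for CTRL mice, so the mutant kinase and the injection of one more virus cannot be told apart. All mice ate regular chow and were fasted overnight, and each library is a pool of 6 animals, so it averages over animals. The labels give no strain, sex or age, and no promoter for GFP-L10. There were 3 libraries in each group, 12 in all, from 6 pools.

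Libraries held 34.6 to 55.5 M gene counts. Mitochondrial genes took 24.9% ± 1.01 of them in DN outputs, 22.4% ± 3.89 in CTRL outputs, 78.6% ± 1.03 in DN inputs and 75.9% ± 1.09 in CTRL inputs (SD, n = 3 each), which left 26.2 to 32.1 M nuclear counts in outputs and 8.54 to 11.3 M in inputs. The 49 genes made up 0.425% to 0.540% of the nuclear counts. Of 7 VMN neuron markers, 6 were called higher in DN outputs than in DN inputs and 7 in CTRL outputs than in CTRL inputs, and of 6 astrocyte markers 4 were called lower in DN outputs and 5 in CTRL outputs (edgeR's quasi-likelihood test, adjusted p below 0.05). Of all genes tested, 1.84% were called higher and 1.54% lower in DN, and 1.78% higher and 1.42% lower in CTRL. The VMN marker list summed to 1693 to 2312 CPM in DN outputs, 1386 to 1598 CPM in CTRL outputs, 515 to 696 CPM in DN inputs and 491 to 556 CPM in CTRL inputs. In bulk RNA such as this, fewer cells of a type and less RNA per cell cannot be told apart.

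Subunit c of ATP synthase, which forms the rotating ring in the membrane, is encoded by 3 genes whose mature proteins are the same. The last 234 coding bases before the stop codon of each principal transcript, the longest end with the same translation in all 3, are shown because they are the part in which the counts have to tell the 3 genes apart. They are read from GENCODE transcripts on GRCm38, 5′ to 3′, and capitals mark the 63 positions at which the 3 sequences are not all alike. All 3 genes lie on the minus strand, Atp5g1 at chr11:96068852-96075670, Atp5g2 at chr15:102662864-102672352 and Atp5g3 at chr2:73908447-73911326.
Atp5g1: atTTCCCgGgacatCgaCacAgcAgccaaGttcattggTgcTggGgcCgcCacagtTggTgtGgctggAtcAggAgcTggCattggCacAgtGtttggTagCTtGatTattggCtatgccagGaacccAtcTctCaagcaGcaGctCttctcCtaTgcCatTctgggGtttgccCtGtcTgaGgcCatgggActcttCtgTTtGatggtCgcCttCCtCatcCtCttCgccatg
Atp5g2: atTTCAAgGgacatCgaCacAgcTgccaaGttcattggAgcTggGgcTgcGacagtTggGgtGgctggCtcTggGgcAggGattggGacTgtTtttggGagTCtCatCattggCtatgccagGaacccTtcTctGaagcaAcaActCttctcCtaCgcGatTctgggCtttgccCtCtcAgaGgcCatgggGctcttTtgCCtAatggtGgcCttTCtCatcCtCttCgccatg
Atp5g3: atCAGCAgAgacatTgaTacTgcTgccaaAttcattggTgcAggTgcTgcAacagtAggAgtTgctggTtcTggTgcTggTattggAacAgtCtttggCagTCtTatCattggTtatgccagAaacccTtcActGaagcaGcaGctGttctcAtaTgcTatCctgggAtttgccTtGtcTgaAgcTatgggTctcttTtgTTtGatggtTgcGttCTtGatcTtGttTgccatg
Atp5g1 and Atp5g2 are identical at 84.62% of the bases, Atp5g1 and Atp5g3 at 78.63%, and Atp5g2 and Atp5g3 at 77.35%. The longest run of bases shared by Atp5g1 and Atp5g2 is 20, that of Atp5g1 and Atp5g3 is 11, and that of Atp5g2 and Atp5g3 is 8, so a read of 50 bases from this stretch differs between any pair of the 3 genes.

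Other genes share stretches with these transcripts as well. Every 50-base window of the principal transcript of each gene was looked up in all other annotated genes, and 27 of the 49 genes shared at least 1 window exactly with another gene. In 6 genes more windows were shared than not: Atp5g2 with 100%, Atp5l with 84.8%, Atp5h with 66.6%, Atp5g1 with 66.0%, Cox7c with 53.0% and Atp5o with 50.3%. Atp5g3 shared none and Atp5b 0.857%. Windows were shared with genes elsewhere in the genome in 23 genes and with a gene overlapping the same locus in 9, 5 of which had both. A read in a window repeated elsewhere fits more than 1 place, and reads with no unique alignment, which were 10.8% to 13.5% of all reads, are not in the gene counts. Windows elsewhere account for all of the share of Atp5g2, Atp5h, Atp5g1 and Cox7c, and alone cover 68.5% of Atp5l. The overlapping genes lie on the opposite strand, with 1 more on the same strand for Atp5o. They shared 39.4% of the windows of Atp5o, 29.2% of Cox5a, 24.8% of Uqcrc2 (with Pdzd9), 17.0% of Atp5l, 15.6% of Atp5f1, 12.2% of Cox4i1 (with Emc8) and 3.30% of Atp5a1 (with Haus1). No source used here gives the strand setting of the counting, so reads of these stretches cannot be told apart from reads of the overlapping gene. Levels of all these genes are uncertain to that extent, and the part of shared windows in any level was not tested.

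**Figure D1:**
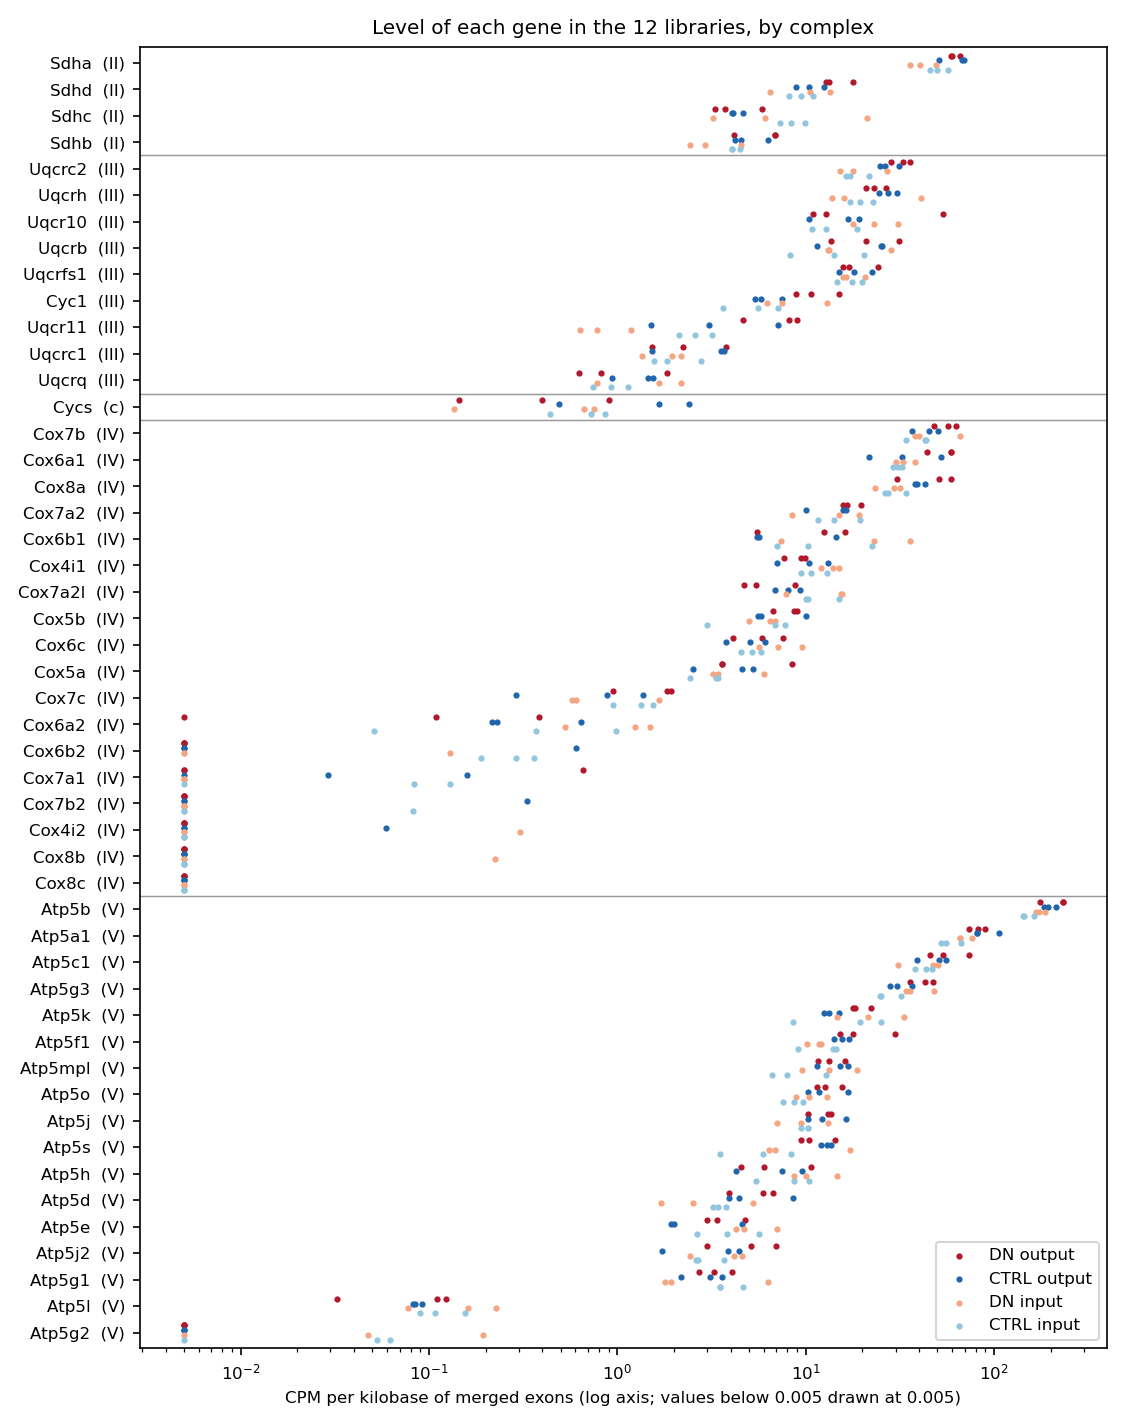
Level of each of the 49 genes in CPM per kilobase of merged exons (log axis), with 1 point for each of the 12 libraries, coloured by group, and genes ordered within complexes II, III, cytochrome c, IV and V. Atp5b stands highest, at a mean of 184 CPM per kilobase, and Cox8c, with no count, is drawn at the left edge with other values below 0.005.

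Levels are given as normalized CPM (counts relative to library size, scaled by TMM over the 12 libraries), and levels of different genes are set against each other per kilobase of merged exon length. The mean over the 4 groups was below 1 CPM for 9 genes, from 1 to below 10 CPM for 9, from 10 to below 100 CPM for 28, and at 100 CPM or more for 3. The 5 genes highest per kilobase were Atp5b with 184, Atp5a1 with 74.8, Sdha with 54.1, Atp5c1 with 47.9 and Cox7b with 47.0 CPM per kilobase of merged exons. Per kilobase of principal transcript they were Atp5b with 406, Atp5g3 with 107, Atp5a1 with 94.9, Atp5c1 with 78.3 and Sdha with 77.0, and Cox7b came sixth with 57.0. The catalytic head of ATP synthase, formed by the alpha (Atp5a1), beta (Atp5b) and gamma (Atp5c1) subunits with delta and epsilon, thus gave 3 of the 5 highest genes by either length. Its delta subunit, Atp5d, stood at 4.45 and its epsilon subunit, Atp5e, at 3.98 CPM per kilobase of merged exons. Per kilobase of principal transcript the order of these 2 turned, with 9.21 for Atp5d and 16.6 for Atp5e.

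The summed level of the 49 genes was 2555, 2432 and 2121 CPM in DN outputs 1, 2 and 3, and 2157, 2134 and 2271 CPM in CTRL outputs. In inputs it was 1942, 2051 and 1852 CPM in DN and 1703, 1672 and 1811 CPM in CTRL. DN and CTRL outputs overlapped, every DN input lay above every CTRL input, and within DN and within CTRL every output lay above every input. With DESeq2 size factors in place of TMM, DN outputs (2089 to 2534 CPM) and DN inputs (1890 to 2089 CPM) overlapped. Complex V gave 68.4% ± 2.61 of the sum in DN outputs, 69.0% ± 2.14 in CTRL outputs, 68.9% ± 2.55 in DN inputs and 66.3% ± 1.38 in CTRL inputs, and Atp5b alone gave 38.0% ± 2.67, 38.1% ± 3.19, 38.3% ± 3.90 and 36.6% ± 1.14 in the same groups (SD, n = 3 each).

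**Figure D2:**
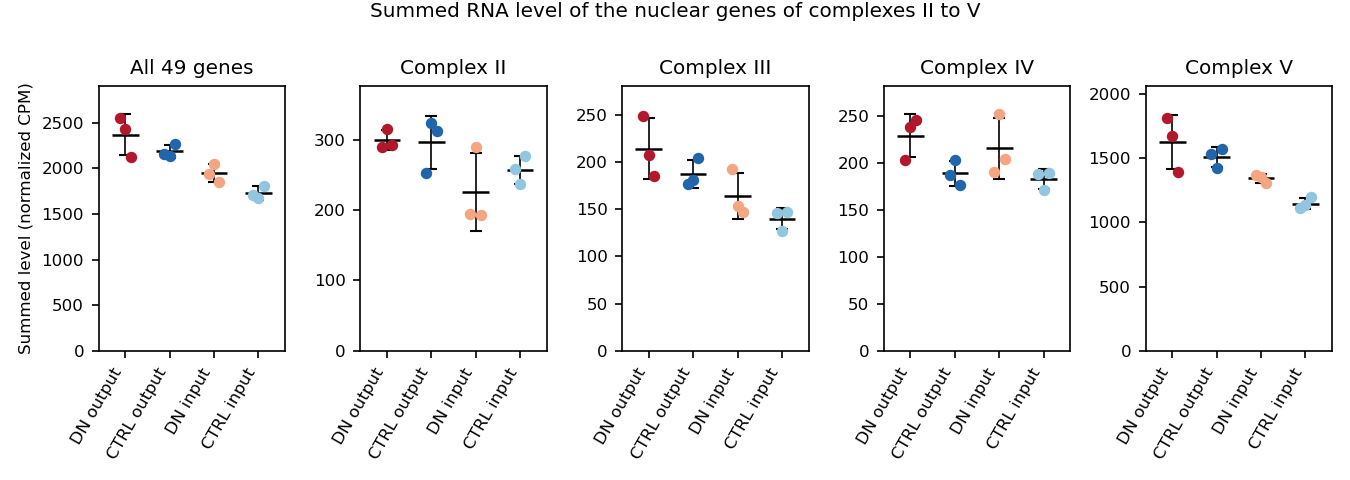
Summed normalized CPM of all 49 genes and of complexes II, III, IV and V in each library, as points, with the mean and SD of 3 libraries per group as lines. DN inputs (1852 to 2051 CPM for all genes) lie above CTRL inputs (1672 to 1811 CPM), whereas the DN and CTRL outputs overlap.

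Complex II has 4 nuclear genes, all of them tested. Sdha, the flavoprotein that binds succinate, was highest by far, with 247, 273 and 243 CPM in DN outputs and 210, 285 and 278 CPM in CTRL outputs. In inputs Sdha had 148, 202 and 168 CPM in DN and 204, 188 and 234 CPM in CTRL. DN outputs were thus above all DN inputs, while CTRL outputs and CTRL inputs overlapped. Sdhd, a membrane anchor, followed with 11.2 CPM per kilobase, Sdhc, the other anchor, with 6.82 and Sdhb, the iron-sulfur subunit, with 4.62, against 54.1 for Sdha. Per kilobase of principal transcript, Sdhb (9.06) stood above Sdhc (6.98).

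Complex III has 9 nuclear genes in the rule. Uqcrc2, a core subunit, was highest per kilobase of merged exons, with 24.6 CPM, and Uqcrh, the hinge subunit, followed with 23.6. Per kilobase of principal transcript the order turned, with 53.4 for Uqcrh and 33.1 for Uqcrc2. Uqcrc2 had 83.8, 91.5 and 72.7 CPM in DN outputs, 63.6, 67.6 and 79.8 CPM in CTRL outputs, 68.6, 38.9 and 45.4 CPM in DN inputs and 43.9, 41.6 and 55.6 CPM in CTRL inputs. Outputs of Uqcrc2 lay above inputs in DN and in CTRL, and the DN and CTRL libraries overlapped in both fractions. The other core subunit, Uqcrc1, stood at 2.33 CPM per kilobase, and Uqcr11 and Uqcrq, small subunits, at 3.66 and 1.22. The electron carriers Uqcrfs1, the Rieske iron-sulfur protein, and Cyc1, cytochrome c1, stood at 18.1 and 8.04 CPM per kilobase.

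Cycs, the somatic cytochrome c, was low, with 1.36, 0.492 and 3.08 CPM in DN outputs, 8.16, 1.67 and 5.65 CPM in CTRL outputs, 0.464, 2.55 and 2.28 CPM in DN inputs and 1.5, 2.47 and 2.94 CPM in CTRL inputs. The groups overlapped. Of the windows of the principal transcript of Cycs, 28.5% were shared with other genes.

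Complex IV has 18 nuclear genes in the rule, of which 12 passed the filter on low counts and were tested. Cox7b was highest per kilobase of merged exons, with 47.0 CPM, ahead of Cox6a1 with 38.5 and Cox8a with 36.1. Per kilobase of principal transcript Cox7b (57.0) and Cox6a1 (47.3) still led. Cox6c (41.6), at 5.87 by merged exons, then stood above Cox8a (40.6). Cox7b, a small structural subunit, had 58.3, 76.4 and 69.3 CPM in DN outputs, 44.6, 60.9 and 54.9 CPM in CTRL outputs, 48.8, 79.7 and 46.0 CPM in DN inputs and 41.4, 52.0 and 52.9 CPM in CTRL inputs. DN and CTRL overlapped in both fractions, and outputs overlapped with inputs. Cox4i1, which is needed for assembly of the enzyme, stood at 10.99 CPM per kilobase, Cox5b at 6.82 and Cox5a at 4.15.

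Several complex IV subunits exist as tissue forms, and in each family a single tissue form held nearly all counts. Over the 12 libraries Cox4i1 had 9017 counts and Cox4i2, the form known from lung, had 9. Cox6a1 had 16399 counts and Cox6a2, the heart and muscle form, 151. Cox6b1 had 4830 counts and Cox6b2, known from testis, 75. Cox7b had 32820 counts and Cox7b2 had 12. Cox8a had 13670 counts, Cox8b, the heart and muscle form, 2, and Cox8c, known from testis, 0, which allows up to 3 counts in all. Single libraries gave many of the few counts of the minor forms: CTRL output 1 held 47 of the 75 of Cox6b2, which left 28, CTRL output 3 held 11 of the 12 of Cox7b2, which left 1, DN input 3 held 6 of the 9 of Cox4i2, and DN input 2 held both of Cox8b. None of these minor forms reached 1 CPM on average over the 12 libraries. Cox6a2 alone among them was tested, with 0, 0.0745 and 0.261 CPM in DN outputs, 0.157, 0.436 and 0.148 CPM in CTRL outputs, 0.357, 1.01 and 0.840 CPM in DN inputs and 0.0348, 0.251 and 0.669 CPM in CTRL inputs. All DN inputs of Cox6a2 lay above all DN outputs, and the other groups overlapped.

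The Cox7a family was grouped by symbol and so also held Cox7a2l, which joins complexes III and IV into supercomplexes. Cox7a2 had 8119 counts, Cox7a2l 7164 and Cox7a1, the heart and muscle form, 34, of which 24 came from DN output 1 and 10 from the other libraries. Between Cox7a2 and Cox7a1, Cox7a2 thus held nearly all counts. Cox7a2 had 15.7, 14.97 and 18.6 CPM in DN outputs, 9.53, 14.96 and 15.4 CPM in CTRL outputs, 8.03, 18.1 and 14.2 CPM in DN inputs and 13.4, 10.96 and 18.2 CPM in CTRL inputs, and all groups overlapped. Cox7a2l had 6.94, 12.9 and 8.08 CPM in DN outputs, 13.8, 10.1 and 11.9 CPM in CTRL outputs, 22.7, 23.1 and 11.6 CPM in DN inputs and 22.2, 14.9 and 15.2 CPM in CTRL inputs. Within each pool Cox7a2l was lower in the output than in the input. Per kilobase, Cox7a2l took 26.2% ± 8.12 of the family in DN outputs, 37.0% ± 9.31 in CTRL outputs, 47.9% ± 15.2 in DN inputs and 44.1% ± 8.54 in CTRL inputs (SD, n = 3 each). The share in DN outputs ran to 35.6% and that in CTRL outputs began at 30.2%, so they overlapped. Of the windows of the principal transcript, 19.8% were shared with a gene elsewhere for Cox7a2l and 0% for Cox7a2. These are thus shares of counted reads.

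Complex V has 17 genes in the rule, of which 16 were tested, Atp5g2 being the one that was not. Atp5b had 985, 980 and 743 CPM in DN outputs, 900, 780 and 815 CPM in CTRL outputs, 709.9, 729.7 and 792 CPM in DN inputs and 612, 601 and 687 CPM in CTRL inputs. All DN inputs of Atp5b lay above all CTRL inputs, while the outputs overlapped. Atp5a1 had 281, 259 and 231 CPM in DN outputs, 255, 255 and 334 CPM in CTRL outputs, 239, 208 and 208 CPM in DN inputs and 163, 209 and 173 CPM in CTRL inputs. All CTRL outputs of Atp5a1 lay above all CTRL inputs, and DN outputs overlapped with DN inputs. Of the stalk and membrane subunits, Atp5g3 (subunit c) stood at 35.1, Atp5k (subunit e) at 18.5, Atp5f1 (subunit b) at 15.1, Atp5o (the oligomycin sensitivity conferring protein) at 11.4 and Atp5l (subunit g) at 0.11 CPM per kilobase of merged exons. By principal transcript Atp5f1 (38.7) stood above Atp5k (30.6), and Atp5l had 1.33. Atp5l is also the gene with 84.8% of its windows shared, with 14 other genes.

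Among the subunit c genes shown above, Atp5g3 had the most counts. Atp5g3 shares no window of its principal transcript with another gene, whereas 66.0% of those of Atp5g1 and 100% of those of Atp5g2 are shared. The counts can therefore miss reads of Atp5g1 and Atp5g2. Principal transcripts have 596 bases for Atp5g1 and 441 for Atp5g2, against 4912 and 1675 bases of merged exons. Exon bases outside the principal transcripts were not searched for shared windows. Shares of the 3 genes are therefore shares of counted reads and do not give the makeup of subunit c RNA. Atp5g3 had 93.2, 78.1 and 103 CPM in DN outputs, 66.4, 80.1 and 61.4 CPM in CTRL outputs, 74.1, 104 and 78.3 CPM in DN inputs and 69.9, 55.0 and 54.1 CPM in CTRL inputs. Atp5g1 had 13.4, 20.1 and 15.9 CPM in DN outputs, 10.7, 17.6 and 15.3 CPM in CTRL outputs, 31.0, 9.47 and 8.80 CPM in DN inputs and 22.8, 17.2 and 17.3 CPM in CTRL inputs. DN inputs of Atp5g3 lay above CTRL inputs, and the groups of Atp5g1 overlapped. Atp5g2 had 0 counts in both output groups, 10 in DN inputs and 5 in CTRL inputs. Its principal transcript has no window that other genes lack. Per kilobase of merged exons, Atp5g3 held 92.4% ± 2.34 of the family's counted reads in DN outputs, 91.5% ± 1.68 in CTRL outputs, 91.7% ± 6.43 in DN inputs and 87.5% ± 0.296 in CTRL inputs. Per kilobase of principal transcript these shares were 82.1% ± 4.87, 80.0% ± 3.48, 81.5% ± 12.9 and 72.2% ± 0.464 (SD, n = 3 each). The DN input share spread over 66.6% to 89.8%, on both sides of the CTRL inputs.

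**Figure D3:**
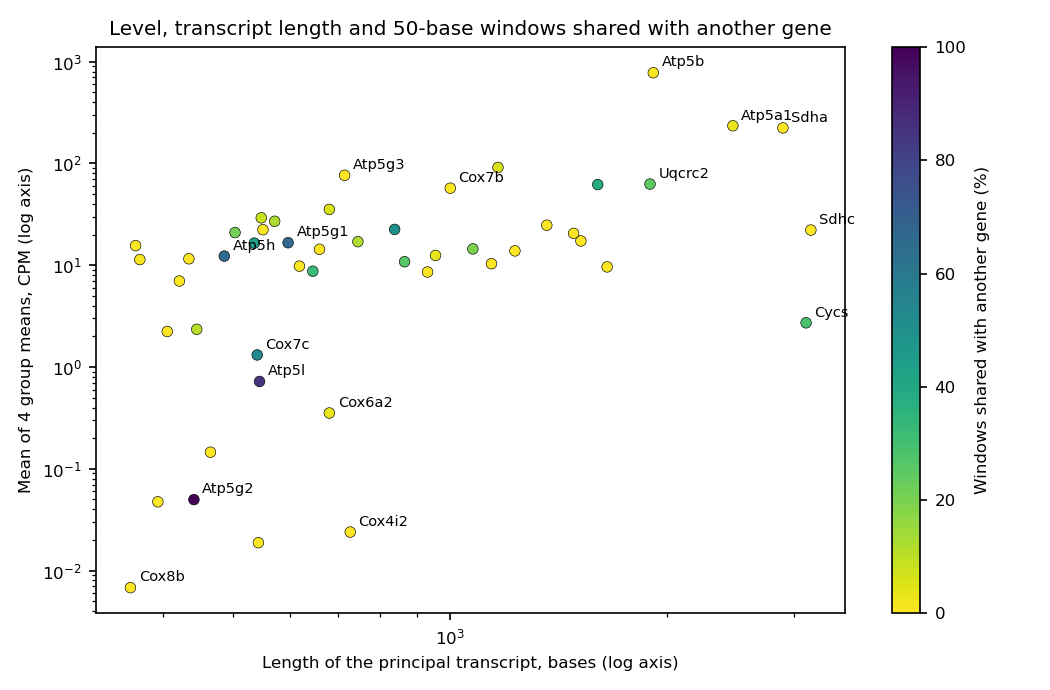
Mean level (CPM, log axis) of 48 genes against the length of the principal transcript (bases, log axis), 1 point per gene, coloured by the percentage of its 50-base windows shared exactly with another gene. Atp5b, Atp5a1 and Sdha stand at the top with long transcripts, Atp5g2 and Atp5l are the darkest points and lie below 1 CPM, and Cox8c, with no count, is not drawn.

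Across the 40 genes with a mean of at least 1 CPM, the level in CPM went with the length of the principal transcript at a Spearman rho of 0.431 and a Pearson r of 0.46 (log2 values), as a description across genes, which are not independent replicates and share libraries and depth. Over the same 40 genes, the level and the share of windows held in common with other genes, at the same locus or elsewhere, had a Spearman rho of 0.023. The cut at 1 CPM leaves out Atp5g2 (100% shared) and Atp5l (84.8% shared). This rho therefore cannot tell whether shared windows go with a low level. In a counting assay longer transcripts give more fragments, so CPM alone does not rank different genes.

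The ratio of output to input within each pool asks whether ribosomes of SF1 cells held more or less of a transcript than the tissue. It is given as the log2 of normalized CPM plus 1 in the output over the same in the input. Over the 42 tested genes the median was 0.24, 0.13 and 0.38 in DN pools 1, 2 and 3, and 0.20, 0.21 and 0.22 in CTRL pools, where the medians of all tested genes lay between -0.01 and 0.00. The ratio was positive in all 6 pools for 8 of the 42 genes, where 7.89% of all genes tested were, and negative in all 6 for 1, where 7.83% of all genes were. The other 33 genes had both signs. The 8 genes were Sdha, Uqcrc2, Cox8a and the ATP synthase genes Atp5a1, Atp5c1, Atp5d, Atp5f1 and Atp5o. The 1 gene was Cox7a2l, with -1.58, -0.79 and -0.48 in DN pools and -0.65, -0.52 and -0.33 in CTRL pools.

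By complex, the pool medians of complex III were 0.75, 0.16 and 0.49 in DN and 0.31, 0.63 and 0.36 in CTRL, all above zero. Those of complex V were 0.21, 0.27 and 0.29 in DN and 0.23, 0.15 and 0.29 in CTRL. Complex IV had 0.10, -0.45 and 0.34 in DN and 0.13, 0.22 and -0.29 in CTRL, so its pools did not share a sign. The 4 genes of complex II had medians of 0.13, 0.37 and 0.85 in DN and 0.20, 0.04 and 0.09 in CTRL. Within complex II the genes differed: Sdhc had -0.66, -2.57 and 0.80 in DN pools and -1.20, -0.80 and -0.79 in CTRL pools, whereas Sdha was positive in all 6.

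**Figure D4:**
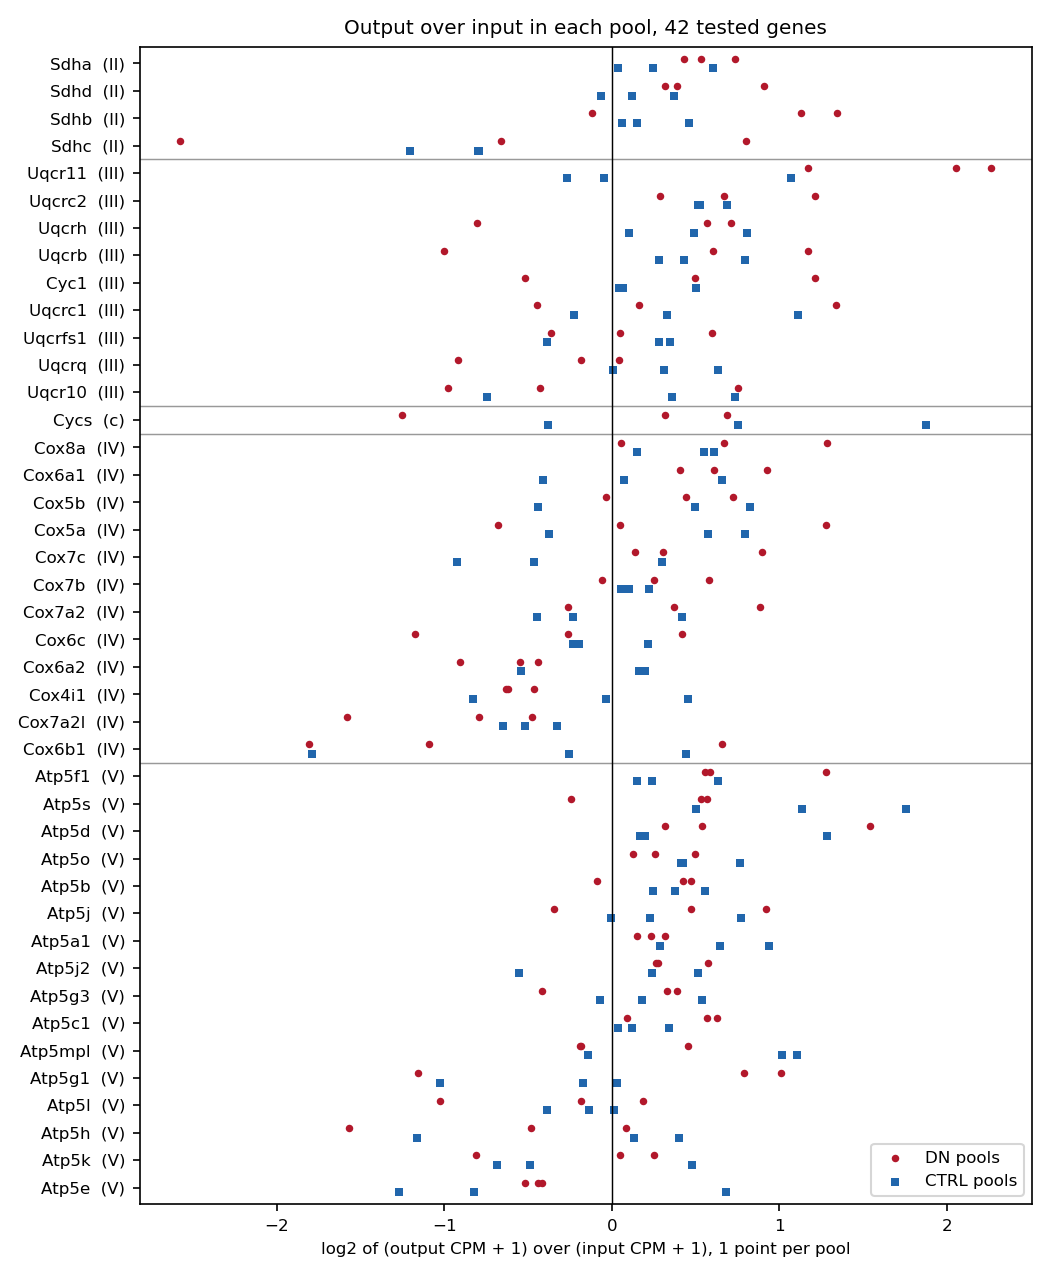
Ratio of output to input within each pool for the 42 tested genes, as log2 of (CPM + 1) over (CPM + 1), with 1 point per pool and DN and CTRL pools in different colours and shapes. Uqcrc2 and Atp5o lie right of zero in all 6 pools, Cox7a2l lies left of it in all 6, and most genes lie on both sides.

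The tests of output against input gave no call among the 42 genes at an adjusted p below 0.05 by edgeR, in DN or in CTRL. In DN, 0 of 42 genes were called where 3.38% of all 13041 genes tested were (1.84% higher and 1.54% lower). In CTRL, 0 of 42 were called where 3.2% of 13456 were (1.78% higher and 1.42% lower). At an unadjusted p below 0.05 there were 4 of 42 genes in DN (15.7% of all genes) and 5 of 42 in CTRL (16.3% of all genes), so the shares of the 42 were near or below those of all genes. DESeq2 called 1 of 47 genes in DN, where 7.5% of all genes were called, and 3 of 47 in CTRL, where 7.61% were. Both shares of the 47 lie below those of all genes. The median log2 change of the 42 was 0.24 in DN and 0.20 in CTRL, against 0.00 and 0.02 over all genes, and 27 genes in DN and 29 in CTRL were positive, where 50.2% and 51% of all genes were. Groups did not overlap for 5 higher and 2 lower genes in DN (11.6% and 10.9% of all genes) and for 8 higher and 2 lower in CTRL (12% and 11.2% of all genes).

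In DN the 3 genes with the smallest p were Sdha, Atp5f1 and Uqcr11. Sdha had a log2 change of 0.55 ± 0.17 (SE) and an adjusted p of 0.121 by edgeR. Atp5f1, the b subunit of the ATP synthase stalk, had 122, 73.1 and 62.1 CPM in DN outputs and 49.8, 48.4 and 41.9 CPM in DN inputs. Every DN output of Atp5f1 lay above every DN input, with a log2 change of 0.86 ± 0.28 (SE) and an adjusted p of 0.140 by edgeR, and without the filter on low counts Atp5f1 was the 1 gene of 47 called, where 4.67% of all genes were, with an adjusted p of 0.0477 (0.0477 to 0.514 over its alternatives). Uqcr11 had 5.22, 5.75 and 2.97 CPM in DN outputs. In DN inputs Uqcr11 had 0.500, 0.405 and 0.760 CPM, from only 14, 10 and 19 counts. This gave Uqcr11 a log2 change of 3.05 ± 1.06 (SE) and an adjusted p of 0.164 by edgeR, and an adjusted p of 0.000611 by DESeq2 (0.000611 to 0.460 over its alternatives).

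In CTRL the 3 genes with the smallest p were Atp5a1, Sdhc and Atp5b. Atp5a1 had a log2 change of 0.62 ± 0.17 (SE) and an adjusted p of 0.0725 by edgeR, and it was called by DESeq2 (adjusted p = 0.0185) and by edgeR without the filter on low counts (adjusted p = 0.0226, 1 gene of 47 where 4.16% of all genes were called), with 0.0185 to 0.284 over its alternatives. Sdhc, a membrane anchor of complex II, had 13.4, 15.2 and 13.3 CPM in CTRL outputs and 32.0, 27.1 and 23.8 CPM in CTRL inputs. Every CTRL output of Sdhc lay below every CTRL input, with a log2 change of -0.997 ± 0.31 (SE) and an adjusted p of 0.115 by edgeR and 0.00144 by DESeq2 (0.00144 to 0.451 over its alternatives). In DN, Sdhc had 12.1, 10.7 and 19.0 CPM in outputs and 19.8, 68.9 and 10.5 CPM in inputs, where the groups overlapped through 1 input at 10.5 CPM. Atp5b had a log2 change of 0.38 ± 0.13 (SE) and an adjusted p of 0.148 by edgeR. Neuronal and glial markers moved between outputs and inputs in the same libraries, as given above, and their part in these ratios was not tested.

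DN outputs were compared with CTRL outputs, the comparison that asks whether dominant-negative AMPK alters what ribosomes of SF1 cells hold. By edgeR 0 of the 42 genes were called, where 0% of all 13333 genes tested were, and DESeq2 called 0 of 46, where 0.818% of all genes were. Cyc1 was the single gene at an unadjusted p below 0.05 by edgeR, where 5.41% of all genes were, and DESeq2 likewise had 1. The median log2 change of the 42 was 0.19, against 0.01 over all genes, and 27 were positive, where 50.8% of all genes were. Without DN replicate 1 the median was 0.10, and without DN replicate 3 it was 0.12. The groups did not overlap for 3 genes, all higher in DN (Cyc1, Sdhd and Atp5k), where 5.17% of all genes were apart and higher, and for 0 lower, where 5.87% were.

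Sums of cell type markers also stood apart in these output libraries. The 6 astrocyte markers summed to 981 to 1094 CPM in DN outputs against 1475 to 1674 CPM in CTRL outputs. The 3 GABA neuron markers summed to 197 to 221 CPM in DN outputs against 242 to 307 CPM in CTRL outputs. Both sums were lower in DN without overlap, but single genes did not all follow them. Of the 5 astrocyte markers tested, 3 had a positive log2 change, with a median of 0.07 over the 5. Of the 3 GABA neuron markers, 1 was positive. The VMN and pan-neuronal lists were higher in DN outputs without overlap, whereas the 6 oligodendrocyte markers, with 168 to 251 CPM in DN outputs and 193 to 349 CPM in CTRL outputs, and the 5 microglia markers overlapped. Of these lists edgeR called 0 genes between DN and CTRL outputs. At an unadjusted p below 0.05 there were 3 of 7 VMN markers, 1 of 5 pan-neuronal markers, 1 of 5 astrocyte markers tested and 0 of 3 GABA neuron markers. The part of these markers in the level of the 42 genes was not tested.

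Cyc1, which holds the heme that passes electrons to cytochrome c, had 32.5, 19.2 and 23.0 CPM in DN outputs and 16.2, 11.6 and 12.5 CPM in CTRL outputs. Every DN output of Cyc1 was above every CTRL output, with a log2 difference of 0.89 ± 0.40 (SE) and an adjusted p of 0.911 by edgeR. Atp5g3 had a log2 difference of 0.40 ± 0.21 (SE) and an adjusted p of 0.948 by edgeR, its DN outputs of 78.1 to 103 CPM overlapping CTRL outputs of 61.4 to 80.1 CPM. Cycs had a log2 difference of -1.65 ± 0.99 (SE) and an adjusted p of 0.949 by edgeR, with an interval of -3.81 to 0.51. For the well-counted genes the intervals were narrow: the 95% interval of the log2 difference ran from -0.18 to 0.41 for Atp5b, from -0.49 to 0.22 for Atp5a1 and from -0.38 to 0.34 for Sdha. The median distance from the estimate to either bound was 0.95 over the 42 genes. These intervals are not adjusted for the number of genes tested, so 0.95 is not the limit of detection for the calls. Differences smaller than this, and also larger ones, can go uncalled for a typical gene at this number of libraries.

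**Figure D5:**
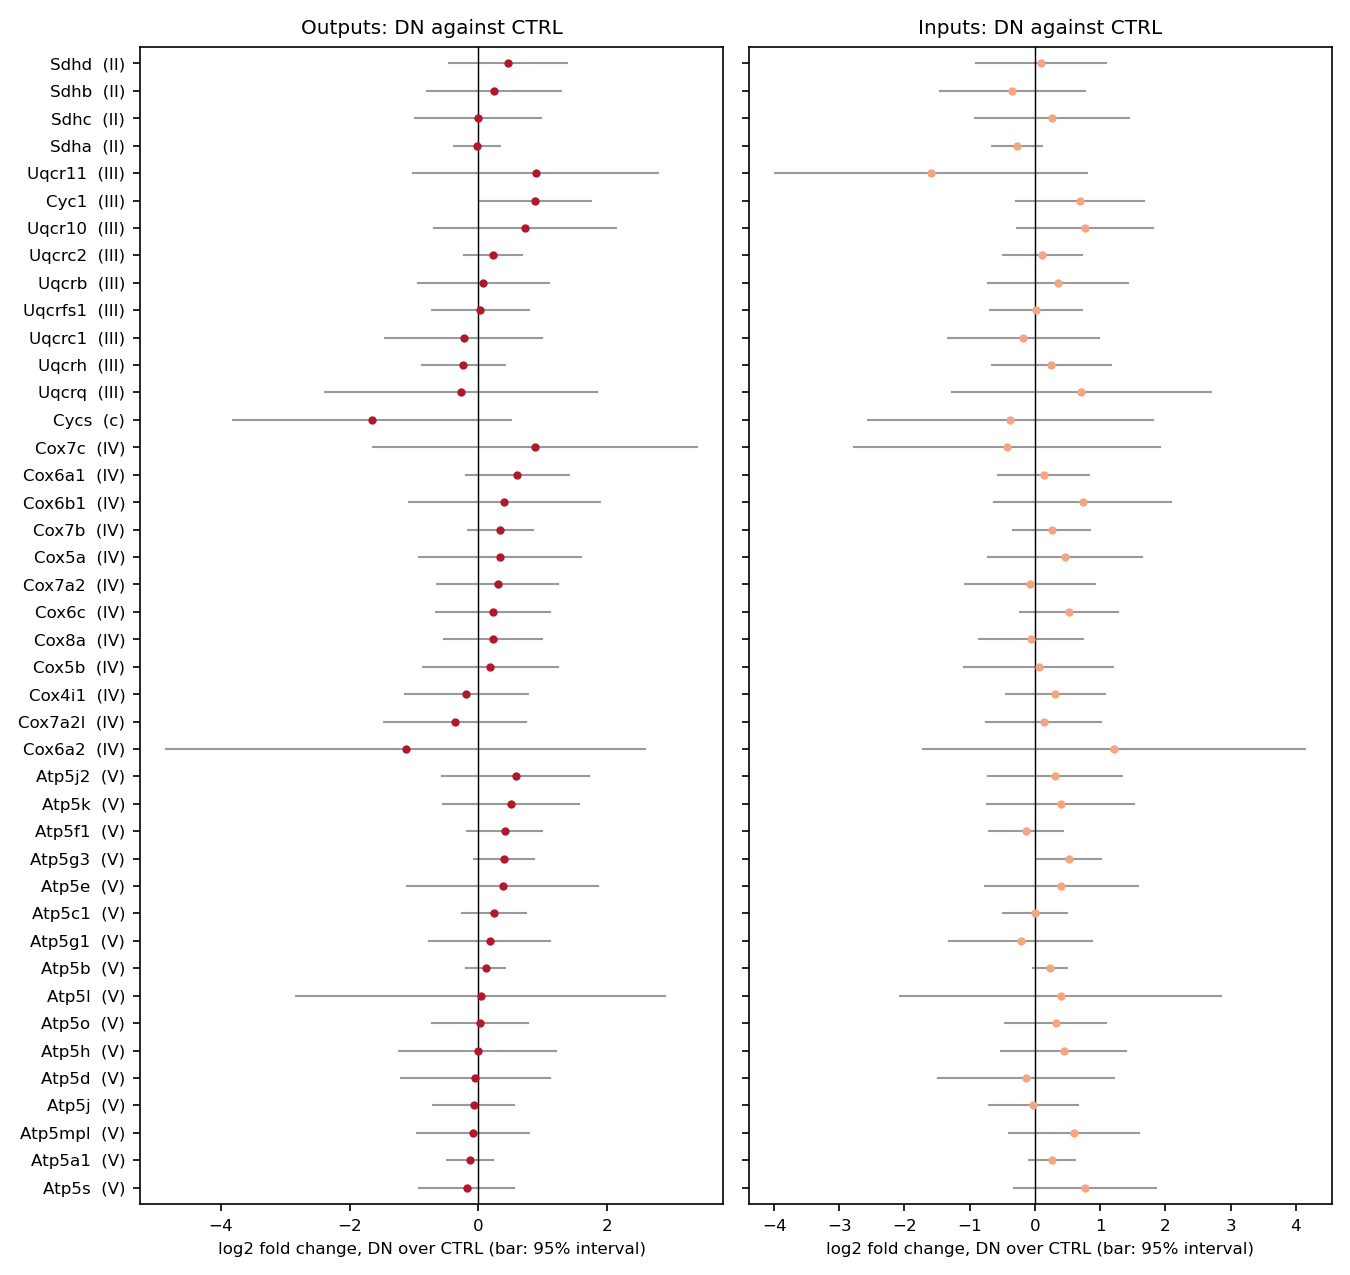
Log2 fold change of DN over CTRL for the 42 tested genes in outputs (left) and inputs (right), with 95% intervals from edgeR as bars and genes ordered by complex. Intervals of all genes but Cyc1 in outputs and Atp5g3 in inputs cross zero, and those of Atp5b, Sdha and Atp5a1 are among the narrowest.

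In inputs, DN was compared with CTRL in the whole tissue. By edgeR 0 of the 42 genes were called, where 0.00756% of all 13221 genes tested were (1 gene), and DESeq2 called 0 of 48, where 0.232% of all genes were. Atp5g3 was the single gene at an unadjusted p below 0.05 by edgeR, where 4.46% of all genes were, and DESeq2 likewise had 1. The median log2 difference of the 42 was 0.25, against 0.03 over all genes, and 30 were positive, where 52.2% of all genes were. Without DN replicate 1 the median was 0.15, and so it was without DN replicate 2. Groups did not overlap for 2 genes higher in DN (Atp5g3 and Atp5b) and 1 lower (Uqcr11), where 5.17% and 5.37% of all genes were apart.

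Atp5g3 had a log2 difference of 0.52 ± 0.23 (SE) and an adjusted p of 0.997 by edgeR between DN inputs and CTRL inputs. Atp5b, the catalytic beta subunit, had one of 0.23 ± 0.12 (SE), and Atp5a1, the alpha subunit, one of 0.26 ± 0.16 (SE), both with an adjusted p of 0.997 by edgeR. The sum over complex V was 1365, 1353 and 1305 CPM in DN inputs and 1110, 1134 and 1195 CPM in CTRL inputs, without overlap. A list of 5 pan-neuronal markers was also apart in the same libraries, with 4746 to 5063 CPM in DN inputs against 4119 to 4465 CPM in CTRL inputs, and so was it in outputs, with 6581 to 7234 CPM in DN against 5817 to 6273 CPM in CTRL. Of the 5 markers, 3 had a positive log2 difference in inputs and 3 in outputs, and edgeR called 0 in either, with 1 at an unadjusted p below 0.05 in each. The part of the neuronal markers in the level of these genes was not tested.

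Whether the output to input change differed between DN and CTRL was tested as an interaction over all 12 libraries. By edgeR 0 of the 42 genes were called, where 0% of all 15011 genes were, with 0 at an unadjusted p below 0.05 (6.22% of all genes), and DESeq2 called 0 of 48, where 0.725% of all genes were, and had 1 at that level. The median was -0.04, against -0.02 over all genes. The 3 smallest p belonged to Uqcr11, Atp5a1 and Atp5s. Uqcr11 had pool ratios of 2.05, 2.26 and 1.17 in DN and -0.05, -0.26 and 1.07 in CTRL, the only gene of the 42 whose ratios did not overlap, where 5.05% of all genes were apart and higher and 4.9% apart and lower. The difference for Uqcr11 was 2.50 ± 1.28 (SE) with an adjusted p of 0.821 by edgeR, and its CTRL libraries held 1.96, 0.965 and 4.57 CPM in outputs and 2.05, 1.36 and 1.65 CPM in inputs. The CTRL inputs of Uqcr11 all lay above the DN inputs given above, which held only 14, 10 and 19 counts. Atp5a1 had a difference of -0.39 ± 0.23 (SE) with an adjusted p of 0.851, and Atp5s, with 29.3, 21.3 and 19.2 CPM in DN outputs, 26.5, 27.6 and 24.7 CPM in CTRL outputs, 34.9, 14.0 and 12.95 CPM in DN inputs and 7.13, 12.1 and 17.1 CPM in CTRL inputs, had one of -0.95 ± 0.61 (SE) with an adjusted p of 0.872, both by edgeR. These comparisons share libraries with each other, so their values are given side by side and not as separate evidence.

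The same fits gave values for 2 other gene families. The first is the 46 genes whose symbol begins with Nduf, most of them for complex I, which passes electrons from NADH to ubiquinone. The rule also takes in genes that are not complex I subunits, such as Ndufa4 of complex IV, and 45 of the 46 were tested. Their median log2 changes were 0.18 in outputs and 0.18 in inputs for DN against CTRL, and 0.27 in DN and 0.24 in CTRL for output against input. The same values for complexes II to V were 0.19, 0.25, 0.24 and 0.20. The cytosolic ribosomal protein genes, 87 to 91 of 101 tested in these fits, had medians of -0.03, 0.19, -0.43 and -0.26. No difference between these families was tested.

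Of the 6 subunits of complexes III to V encoded by mitochondrial DNA, mt-Cytb, the cytochrome b of complex III, and mt-Co1, the catalytic subunit of complex IV, had counts enough to be tested. mt-Cytb averaged 4046 ± 174 CPM in DN outputs, 2988 ± 804 CPM in CTRL outputs, 33725 ± 268 CPM in DN inputs and 27414 ± 2899 CPM in CTRL inputs (SD, n = 3 each). It fell in DN outputs against DN inputs by 3.07 ± 0.05 (SE) on the log2 scale (adjusted p = 1.12e-12) and in CTRL outputs against CTRL inputs by 3.21 ± 0.19 (SE) on the log2 scale (adjusted p = 6.87e-06), by edgeR. mt-Co1 fell by 2.004 ± 0.05 (SE) on the log2 scale in DN (adjusted p = 1.1e-10) and by 1.95 ± 0.16 (SE) on the log2 scale in CTRL (adjusted p = 8.41e-05). Among the 42 nuclear genes tested, 0 were called by edgeR in either direction in these 2 comparisons, as given above. Neither a difference between the mitochondrial and the nuclear genes nor the cause of the fall of mt-Cytb and mt-Co1 was tested. The other 4 genes of this list had at most 1 count each. Mitochondrial genes took 78.6% of counts in DN inputs and 75.9% in CTRL inputs, so these 4 counts are not read as levels. Why they were so low, and whether mt-Cytb and mt-Co1 were counted in full, was not tested.

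Of 38 genes for assembly factors of complexes II to V, 33 to 35 were tested in each comparison and 0 were called by edgeR in any. At an unadjusted p below 0.05 there was 1 in DN outputs against DN inputs (Higd2a), where 15.7% of all genes were. There were 2 in CTRL outputs against CTRL inputs (Ndufa4 and Higd1a), where 16.3% of all genes were. Ndufa4, now known as a subunit of complex IV, averaged 80.0 ± 16.5 CPM in CTRL outputs and 44.5 ± 1.71 CPM in CTRL inputs. Their median log2 change was 0.35 for DN outputs against DN inputs and 0.40 for CTRL outputs against CTRL inputs, and -0.01 and 0.13 for DN against CTRL in outputs and inputs.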

How the data were processed

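Read counts per Ensembl gene in 12 libraries were deposited by the authors as whole numbers without normalization. The submitters' processing notes list STAR 2.4.2a, HTSeq 0.6.1, cutadapt 1.3 and build GRCm38, and per the labels' protocols RNA was amplified with the NuGEN Ovation system. No source used here gives the annotation release or the strand setting. Symbols, biotypes, exon lengths and transcripts came from GENCODE M21 on GRCm38, which held 46005 of 46517 identifiers. Reads that HTSeq put in no gene were 16.1% to 26.1% of all reads and were left out.

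Each comparison of 2 groups was fitted on its own 6 libraries with edgeR 4.0.16 in R 4.3.3 (quasi-likelihood test, two-sided, TMM, filterByExpr with a minimum count of 10 and a minimum total of 15, Benjamini-Hochberg adjustment over all genes tested, threshold 0.05). The interaction used all 12. Levels and ratios were computed in Python 3.11.15 with TMM factors over 12 libraries and 1 CPM added to ratios. The 50-base windows are exact matches to any other annotated gene on either strand. No molecular identifiers are named and the RNA was amplified, so counts are reads and can include copies of the same molecule. For DN against CTRL within a fraction, the p-values measure the spread between pools. The main fits of output against input, and of the interaction, had no term for the pool. Their p-values measure the spread between libraries, with input and output of a pool treated as unpaired. Scripts were tested on simulated data. The closest libraries correlated at 0.944, so none is a copy.

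Named genes were the 3 with the smallest p in each comparison where fewer than 3 were called, the isoform families, and the highest gene per length in each complex. Members and lists were chosen with earlier results of these data known. Input and output of a number come from 1 pool, per the series design. Deviations from group means correlated across genes at 0.004, -0.002 and 0.015 within DN pools and at 0.096, 0.035 and 0.156 within CTRL pools. Between an output and an input of different numbers the values were -0.021 to 0.016 in DN and -0.126 to 0.036 in CTRL. The DN values within pools, and the 0.035 of CTRL pool 2, lie inside these ranges. The pairing of those pools therefore rests on the series design and does not show in the counts. DN and CTRL pools share only a number. Alternatives were DESeq2 1.42.0, DESeq2 size factors, no filter, leaving out the mitochondrial chromosome, a replicate block and leaving out each replicate. Levels and sums under other scalings and per principal transcript, and the split of shared windows by locus were added after seeing the data.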

Additional observations from a re-analysis of the deposited data

How the results depend on the processing

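Every alternative kept the count of called genes at 0 for DN against CTRL in outputs, in inputs and in the interaction. For CTRL outputs against CTRL inputs DESeq2 called 3 of 47 genes (Atp5a1, Atp5s and Sdhc; 7.61% of all genes) and edgeR without a filter 1 of 47 (Atp5a1; 4.16% of all genes). For DN outputs against DN inputs DESeq2 called 1 of 47 (Uqcr11; 7.5% of all genes) and edgeR without a filter 1 of 47 (Atp5f1; 4.67% of all genes). With the pool as a replicate block the count of called genes stayed 0 in the output against input fits and in the interaction, as it did with the replicate number as a block between DN and CTRL, which join unrelated animals. Leaving out each replicate gave 0 to 0 calls. The median log2 change ranged over 0.10 to 0.19 for outputs, 0.15 to 0.31 for inputs, 0.16 to 0.33 for DN output against input and 0.18 to 0.24 for CTRL. The interaction median of -0.04 was 0.02 with the replicate block, and leaving out replicates gave -0.14 (without DN replicate 1) to 0.07 (without DN replicate 2). The mean CTRL pool ratio, a median of 0.21 over the genes, was 0.23 with 0.1 CPM added and 0.16 with 5 CPM added.

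Over all genes, output against input called 431 genes in CTRL with edgeR, 1651 with DESeq2, 903 without a filter, and 54, 45 and 214 without replicates 1, 2 and 3. In DN it called 441, 1568, 976, and 148, 136 and 115. For DN against CTRL, DESeq2 called 169 genes in outputs, 50 in inputs and 170 in the interaction, where edgeR called 0, 1 and 0. Without a filter edgeR called 39 in inputs and 54 in the interaction, and 8 in inputs without CTRL replicate 3. The causes were not tested. With 3 pools per group, and with inputs at 8.54 M nuclear counts or more, small differences of the low genes could not be detected.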
